A study of Mus musculus with 12 samples.

Results

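The 9 genes described here encode proteins of the myelin sheath, the wrapped membrane that oligodendrocytes lay around axons, and enzymes that make its galactolipids. They are Mbp, Mobp, Pllp, Cnp, Mag, Mog, Cldn11, Ugt8a and Fa2h. They were chosen by symbol, and all 9 were found among the 55357 genes of the deposited tables. RNA had been sequenced from 12 pieces of mouse brain at postnatal day 5, each a rostral or caudal piece of cerebral cortex with hippocampal formation, from 3 control animals (T4, T8 and T70) and 3 animals lacking the epidermal growth factor receptor in the brain (T3, T6 and T80). The control animals are described as EgfrF/+, with 1 floxed and 1 intact Egfr allele, although their genotype tag reads WT. The other animals are Nestin-EgfrF/F, with both Egfr alleles floxed and a recombinase under the Nestin promoter, and are called cKO here. The Nestin promoter is active in neural progenitors, from which neurons, astrocytes and oligodendrocytes arise, so the deletion is not limited to oligodendrocytes. Whether the controls carry the recombinase is not stated, so an effect of the recombinase and an effect of losing Egfr cannot be told apart.

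Oligodendrocytes arise from dividing precursors, pass through a newly formed stage that switches on the first myelin genes, and then wrap axons. In mouse cortex most wrapping takes place after the first postnatal week, and genes of the finished sheath come on after those of the first membrane. Compact myelin holds Mbp, which joins the inner faces of the membrane, together with the proteolipid Pllp (plasmolipin) and the small basic protein Mobp. Cnp, a cyclic nucleotide phosphodiesterase, keeps cytoplasmic channels open in the uncompacted membrane, and Mag is an adhesion molecule of the layer next to the axon. Mog lies on the outermost surface, and Cldn11 is a claudin that forms the tight junctions between layers. Ugt8a transfers galactose to ceramide to make galactosylceramide, and Fa2h hydroxylates the fatty acid of these lipids.

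When the rostral and caudal counts of each animal were added, the level of 8 of the 9 genes was lower in cKO than in control animals, as it was for 47% of all genes tested. For 7 of them the genotypes did not overlap, with cKO lower, as for 14.3% of all genes. The test across all genes called Pllp alone of the 9, at 58.1% of control, where 0.179% of all genes were called. Mog and Mobp were barely expressed in any group. Cldn11 did not follow the other genes and varied from library to library together with genes of the meninges.

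Start-site sequence from RefSeq (build GRCm38.p6) was examined for 7 of the 9 genes, from 250 bases before to 50 bases after each start. No window of Mbp or Fa2h was examined. The 4 windows printed are those of the gene that was called lower (Pllp), of the genes whose windows held both a Sox-type and a Myrf-type motif (Cnp and the first of 3 Mag entries), and of the barely expressed Mobp. They lie at chr8:94696193-94696492 on the minus strand (Pllp), chr11:100574689-100574988 on the plus strand (Cnp), chr7:30914814-30915113 on the minus strand (Mag) and chr9:120149492-120149791 on the plus strand (Mobp). Capitals mark ACAAAG (Sox-type) and CTGGCAC or CTGGTAC (Myrf-type) on either strand, so a match on the opposite strand reads as its reverse complement.
Pllp: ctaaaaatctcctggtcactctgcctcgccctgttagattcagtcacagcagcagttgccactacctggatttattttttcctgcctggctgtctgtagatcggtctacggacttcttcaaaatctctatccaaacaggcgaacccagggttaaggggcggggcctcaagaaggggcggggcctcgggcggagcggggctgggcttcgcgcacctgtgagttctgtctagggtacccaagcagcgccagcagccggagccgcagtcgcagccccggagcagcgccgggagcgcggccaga
Cnp: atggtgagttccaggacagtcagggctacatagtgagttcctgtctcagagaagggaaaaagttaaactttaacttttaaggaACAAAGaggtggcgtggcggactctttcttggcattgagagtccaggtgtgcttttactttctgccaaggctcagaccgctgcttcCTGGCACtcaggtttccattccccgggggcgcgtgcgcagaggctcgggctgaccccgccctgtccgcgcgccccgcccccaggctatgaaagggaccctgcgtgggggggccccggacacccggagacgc
Mag: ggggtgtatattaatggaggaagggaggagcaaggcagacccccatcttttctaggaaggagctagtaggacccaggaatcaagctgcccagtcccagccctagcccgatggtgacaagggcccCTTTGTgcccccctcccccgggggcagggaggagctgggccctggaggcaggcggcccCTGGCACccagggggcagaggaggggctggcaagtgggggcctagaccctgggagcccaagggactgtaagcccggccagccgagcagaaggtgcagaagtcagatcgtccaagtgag
Mobp: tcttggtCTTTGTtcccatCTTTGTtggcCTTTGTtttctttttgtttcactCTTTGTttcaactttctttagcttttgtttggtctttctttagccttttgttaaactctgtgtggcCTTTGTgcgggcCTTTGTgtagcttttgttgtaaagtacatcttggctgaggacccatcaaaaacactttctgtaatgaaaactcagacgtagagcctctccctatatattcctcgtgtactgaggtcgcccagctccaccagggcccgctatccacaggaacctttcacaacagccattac

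ACAAAG, a core motif of Sox factors, was present on either strand in 18.7% of 32851 start-site windows of the same length. CTGGCAC and CTGGTAC, motifs of the myelin regulator Myrf, were present in 5.01% and 2.24%. The Cnp window held 1 ACAAAG and 1 CTGGCAC, and the printed Mag window held 1 of each as well. The second Mag entry, which overlaps the printed one, also held 1 of each, and the third held neither. The Mobp window held 6 copies of ACAAAG, all written as the reverse complement in its first part, and it was the only 1 of the 32851 windows with as many. The Pllp window held neither motif, nor did those of Ugt8a and Cldn11, and the Mog window held 1 CTGGTAC. Also searched were AACAAT (in 10.7% of windows), CAGCTG (16.3%), CCAAT (37.4%) and TATAAA (13.6%). Of these, only CCAAT was found, with 2 copies for Cldn11 and in 2 of the Mag entries. These matches are descriptions of letters and show no binding.

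In the deposited coordinates (GRCm39), Mbp (ENSMUSG00000041607.18) spans chromosome 18 from 82493271 to 82603762 on the plus strand and Mobp (ENSMUSG00000032517.17) chromosome 9 from 119978773 to 120010550 on the plus strand. Pllp (ENSMUSG00000031775.6) spans chromosome 8 from 95401522 to 95422906 on the minus strand, and Fa2h (ENSMUSG00000033579.17) lies on the same chromosome and strand from 112071767 to 112120456. Cnp (ENSMUSG00000006782.17) spans chromosome 11 from 100465730 to 100482555 on the plus strand. Mag (ENSMUSG00000036634.16) spans chromosome 7 from 30598601 to 30614298 and Mog (ENSMUSG00000076439.13) chromosome 17 from 37321635 to 37334290, both on the minus strand. Cldn11 (ENSMUSG00000037625.8) and Ugt8a (ENSMUSG00000032854.13) lie on chromosome 3, from 31204069 to 31218473 on the plus strand and from 125658920 to 125732268 on the minus strand. The counts are per gene over all annotated exons and do not separate transcripts, so counts of Mbp also hold those of the longer Golli transcripts that share its locus.

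Each library held 43810458 to 87170315 counts. Levels are given as CPM, the counts per 1000000 counts of a library after TMM scaling over all 12 libraries. Egfr ran from 39.3 to 49.0 CPM in control and from 5.73 to 14.7 CPM in cKO libraries, and differed on animal sums by a log2 difference of -2.1 (SE 0.11), with a Benjamini-Hochberg adjusted p of 0.0019 in the quasi-likelihood test of edgeR. Among the cKO libraries, the rostral piece of T6 stood apart, with 8.18% of its counts from mitochondrial genes against 1.85% to 3.98% elsewhere. That library also had a low level of 10 astrocyte genes (mean log2 difference of -1.82 from control rostral) and of 9 meningeal genes (24.5 CPM summed). The rostral piece of T3 held 360 CPM of Ttr, a choroid plexus gene that was at 0.0481 to 0.398 CPM in the other rostral libraries, and the caudal piece of T3 held 109 CPM of the meningeal genes against 627 to 880 CPM in the other caudal libraries. The 6 choroid plexus genes summed to 221 CPM in the caudal piece of T3, beside 179 and 210 CPM in the caudal pieces of T4 and T70. Values by region of the 8 genes tested there are also given without T3 and without T6. A rostral and a caudal library that share a T number are treated as pieces of the same animal. Controls were 2 females and 1 male and cKO animals 1 female and 2 males, as read from Xist and Y-linked transcripts.

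Per kilobase of annotated exon, the 6 control libraries gave a wide spread of levels among the 9 genes. Cnp was highest at 15.1 ± 1.86 CPM per kb (SD, n = 6), followed by Mbp at 8.23 ± 0.237, Cldn11 at 7.46 ± 2.64, Pllp at 4.5 ± 0.512 and Ugt8a at 2.31 ± 0.437. Mag at 0.53 ± 0.0896, Fa2h at 0.433 ± 0.0923, Mog at 0.105 ± 0.0613 and Mobp at 0.0497 ± 0.0315 CPM per kb came last. Neighbours whose ranges overlapped were Mbp and Cldn11 (Mbp above in 3 of 6 libraries), Cldn11 and Pllp (5 of 6), Mag and Fa2h (6 of 6), and Mog and Mobp (5 of 6). The n of 6 here counts both pieces of 3 animals. This order depends on the annotated exon length, which is 8469 bases for Mbp and 3639 for Cnp. In CPM without this division Mbp was above Cnp, at 66.3 to 71.7 against 47.3 to 63.5 CPM in control libraries.

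By a limit of a mean of 1 CPM in any group, 2 of the 9 genes were barely expressed at this age. Mog had 0 to 20 counts per library and 92 in all, and Mobp had 9 to 38 per library and 231 in all. Fa2h passed 1 CPM as a group mean only in the 2 control groups, and Mag in 3 of the 4 groups. Opalin, a later oligodendrocyte membrane protein outside the 9 genes, was at 0 to 0.0436 CPM. Mbp, Cnp, Cldn11, Pllp and Ugt8a were above 1 CPM on average in every group.

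**Figure D1:**
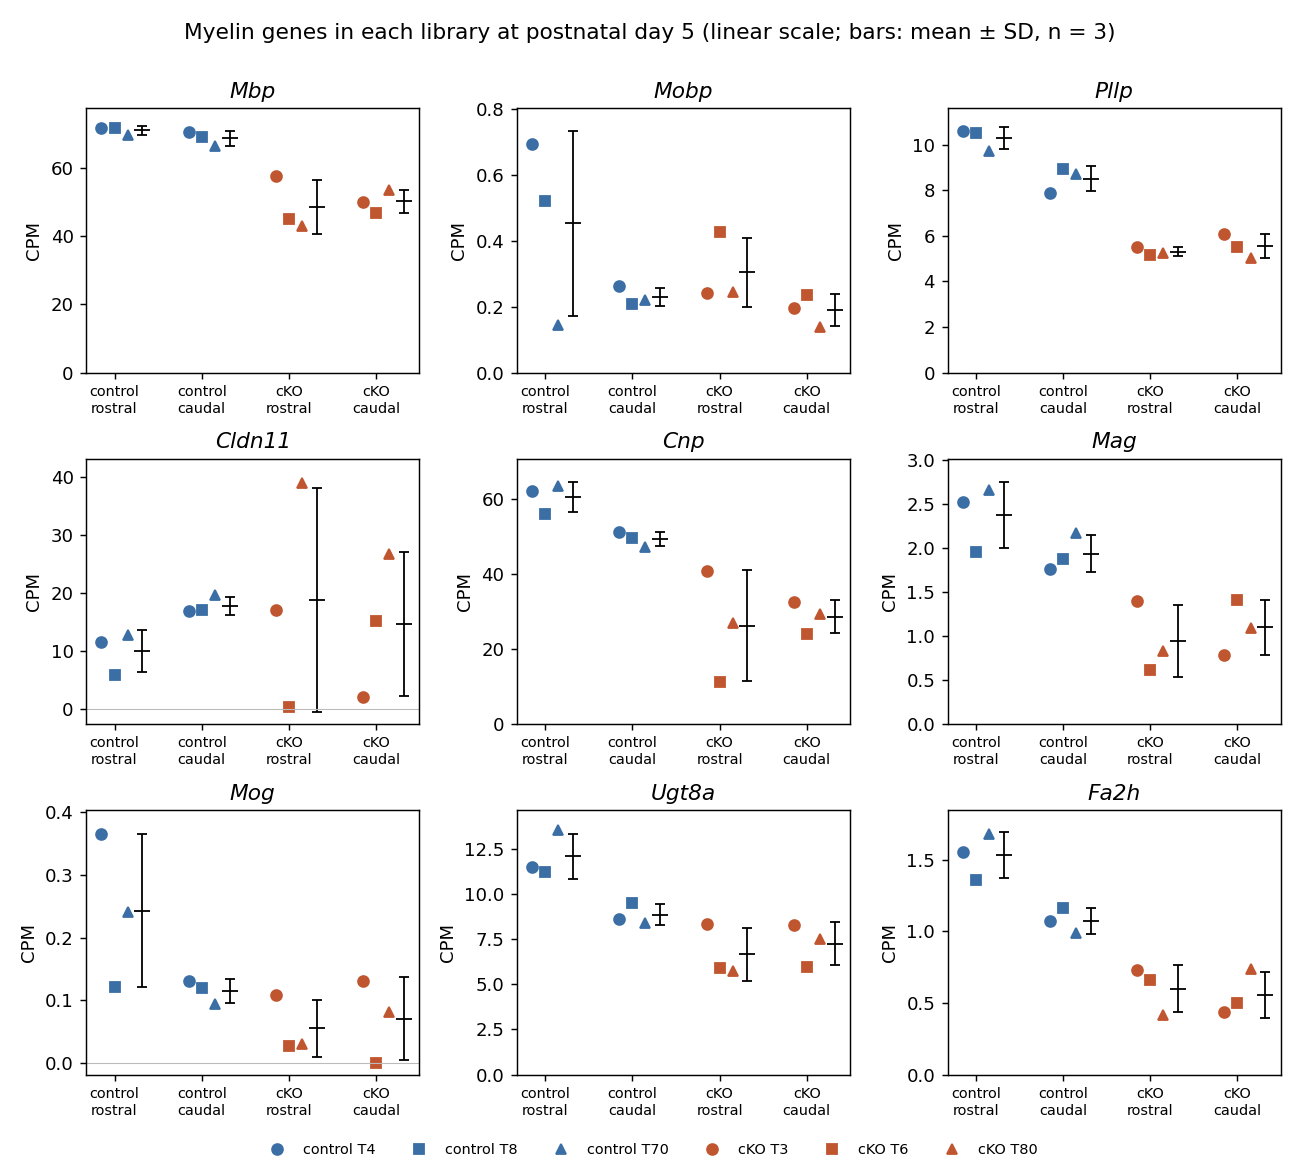
CPM of each of the 9 myelin genes (linear y axes from about 0) in the 12 libraries, by genotype and region, with marker shapes for animals and black bars for the group mean ± SD (n = 3). Mbp, Pllp, Cnp, Mag, Ugt8a and Fa2h were lower in the cKO libraries of each region without overlap, while Cldn11 ran from 0.453 to 39.0 CPM within cKO rostral libraries.

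In the rostral piece, the 3 control libraries (T4, T8 and T70) had 71.7, 71.5 and 69.5 CPM of Mbp, and the 3 cKO libraries (T3, T6 and T80) had 57.6, 44.9 and 42.9 CPM. In the caudal piece, controls had 70.5, 68.9 and 66.3 CPM of Mbp and cKO libraries 50.1, 46.8 and 53.6 CPM. Every cKO value of this main structural protein of compact myelin lay under every control value of either region. The log2 difference of Mbp (cKO minus control) was -0.54 in rostral (SE 0.13, adjusted p = 0.339) and -0.44 in caudal pieces (SE 0.07, adjusted p = 0.078), and neither passed 0.05 in edgeR after Benjamini-Hochberg adjustment. Without T3 the log2 difference of Mbp was -0.69 in rostral and -0.45 in caudal pieces, and without T6 it was -0.49 and -0.4. On animal sums Mbp stood at 71.1% of control (log2 difference -0.49, SE 0.08, adjusted p = 0.084 in edgeR).

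Pllp, a tetraspan proteolipid of compact myelin that is also found in some epithelia, had 10.6, 10.5 and 9.72 CPM in control rostral and 5.52, 5.17 and 5.23 CPM in cKO rostral libraries. Caudal controls had 7.88, 8.93 and 8.71 CPM of Pllp, and caudal cKO libraries 6.1, 5.53 and 5.05 CPM. The genotypes were well apart in both regions, and the 6 cKO values lay closer together than the control values of the 2 regions. Added per animal, Pllp was at 8.98, 9.74 and 9.22 CPM in controls and 5.79, 5.2 and 5.14 CPM in cKO animals. Pllp fell, with a log2 difference of -0.78 (SE 0.09) and an adjusted p of 0.0381 in edgeR. This call of Pllp rests on all animals but T6. Leaving out a control animal gave Pllp an adjusted p in edgeR of 0.21 (T4), 0.196 (T8) or 0.241 (T70), and leaving out a cKO animal gave 0.0608 (T3) or 0.082 (T80). With sex in the fit the log2 difference was -0.76 and the adjusted p 0.134 in edgeR. By region, the log2 difference of Pllp was -0.95 in rostral (SE 0.12, adjusted p = 0.186) and -0.6 in caudal pieces (SE 0.12, adjusted p = 0.13) in edgeR. Those of Pllp were -0.98 and -0.68 without T3, and -0.92 and -0.61 without T6.

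Mobp, the basic protein of compact myelin that comes on late, had 0.694, 0.519 and 0.144 CPM in control rostral and 0.262, 0.208 and 0.219 CPM in control caudal libraries. The cKO libraries had 0.243, 0.426 and 0.245 CPM (rostral) and 0.196, 0.235 and 0.137 CPM (caudal). The genotypes overlapped in both regions, and the log2 difference on animal sums was -0.4 (SE 0.37, adjusted p = 0.596, edgeR), so no difference of Mobp was detectable with 9 to 38 counts per library. The rostral and caudal differences of Mobp were -0.56 and -0.29 with all animals, -0.43 and -0.32 with T3 left out, and -0.87 and -0.5 with T6 left out.

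Cnp of the uncompacted membrane had 62.3, 56.0 and 63.5 CPM in control rostral and 51.2, 49.7 and 47.3 CPM in control caudal libraries. In cKO it had 40.7, 11.1 and 26.8 CPM in rostral and 32.5, 24.0 and 29.4 CPM in caudal libraries. All cKO values lay under all control values, and the lowest was that of T6 rostral, the library with the high mitochondrial share. The log2 difference of Cnp was -1.2 in rostral (SE 0.42, adjusted p = 0.465) and -0.78 in caudal pieces (SE 0.11, adjusted p = 0.0673), and -0.98 on animal sums (SE 0.25, adjusted p = 0.183), all in edgeR. Without T6 the rostral difference of Cnp was -0.83 and the caudal -0.67, the latter with an adjusted p of 0.0135 in edgeR. Without T3 the rostral difference of Cnp was -1.67 and the caudal -0.89, the latter with an adjusted p of 0.0171 in edgeR.

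Mag, the periaxonal adhesion molecule, had 2.52, 1.95 and 2.66 CPM in control rostral against 1.4, 0.605 and 0.826 CPM in cKO rostral libraries. In caudal pieces controls had 1.76, 1.87 and 2.17 CPM of Mag and cKO libraries 0.784, 1.41 and 1.09 CPM. The genotypes did not overlap in either region. Mag stood at 48.8% of control on animal sums (log2 difference -1.03, SE 0.16, adjusted p = 0.0728, edgeR), with -1.32 (SE 0.34) in rostral and -0.8 (SE 0.23) in caudal pieces. The regional differences of Mag were -1.73 and -0.63 when T3 was left out, and -1.08 and -1.02 when T6 was.

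Mog, the protein of the outermost layer, was at the edge of detection. Controls had 0.365, 0.122 and 0.241 CPM in rostral and 0.131, 0.119 and 0.0938 CPM in caudal pieces. The cKO libraries had 0.108, 0.0275 and 0.0306 CPM in rostral and 0.131, 0 and 0.0819 CPM in caudal pieces, and a count of 0 in T6 caudal allows up to 0.0441 CPM (3 counts, counting error only). The filter on low counts kept Mog only on animal sums, where the genotypes did not overlap and the log2 difference was -1.47 (SE 0.59, adjusted p = 0.303, edgeR). The sums rest on 68 counts over all control and 24 over all cKO libraries.

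Of the galactolipid enzymes, Ugt8a, which makes galactosylceramide, had 11.5, 11.2 and 13.5 CPM in control rostral and 8.34, 5.88 and 5.74 CPM in cKO rostral libraries. In caudal pieces Ugt8a had 8.62, 9.5 and 8.4 CPM in control and 8.3, 5.93 and 7.49 CPM in cKO. The caudal groups nearly touched, through T3, without overlapping. The log2 difference of Ugt8a was -0.85 in rostral (SE 0.19, adjusted p = 0.318), -0.28 in caudal pieces (SE 0.14, adjusted p = 0.407) and -0.57 on animal sums (SE 0.14, adjusted p = 0.182), all in edgeR. In rostral pieces Ugt8a was at -1.06 without T3 and -0.77 without T6, and in caudal pieces at -0.4 and -0.16.

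Fa2h, which hydroxylates the fatty acid of galactolipids, had 1.55, 1.36 and 1.68 CPM in control rostral and 0.729, 0.66 and 0.413 CPM in cKO rostral libraries. In caudal pieces Fa2h had 1.07, 1.16 and 0.985 CPM in control and 0.436, 0.499 and 0.737 CPM in cKO. No cKO value reached the lowest control value. Fa2h stood at 46.2% of control on animal sums (log2 difference -1.11, SE 0.15, adjusted p = 0.0514, edgeR), just over the threshold, with -1.34 (SE 0.28) in rostral and -0.92 (SE 0.24) in caudal pieces. Leaving out T3 gave -1.51 and -0.79 for Fa2h, and leaving out T6 gave -1.4 and -0.83. Its counts were low, at 20 to 105 per library.

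Cldn11, the sheath claudin, is also made by arachnoid cells of the meninges. It had 11.5, 5.97 and 12.7 CPM in control rostral and 16.9, 17.0 and 19.6 CPM in control caudal libraries. The cKO libraries had 17.0, 0.453 and 39.0 CPM in rostral and 2.09, 15.1 and 26.8 CPM in caudal pieces. Within cKO the highest value was 86-fold the lowest, and the control values lay between them. The log2 difference was 0.92 in rostral pieces (SE 1.12, adjusted p = 0.746), -0.27 in caudal pieces (SE 0.8, adjusted p = 0.907) and 0.27 on animal sums (SE 0.48, adjusted p = 0.787), all in edgeR. Its direction turned when single cKO animals were left out, for example to -0.2 in rostral pieces without T80 and to 0.23 in caudal pieces without T3. The rostral difference of Cldn11 was 0.98 without T3, and without T6 the values were 1.48 (rostral) and -0.28 (caudal).

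The level of Cldn11 moved with that of 9 meningeal and arachnoid genes. Their summed CPM was lowest in T6 rostral (24.5) and T3 caudal (109), where Cldn11 was lowest too, and highest in T80 rostral (915) and T80 caudal (880), where Cldn11 was highest. Control rostral libraries held 154 to 379 CPM of these genes and control caudal libraries 627 to 775 CPM, in the same order of regions as Cldn11. The part of the meninges in the Cldn11 values was not tested. Pllp did not follow these genes, since its cKO values stayed between 5.05 and 6.1 CPM over meningeal sums from 24.5 to 915 CPM.

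**Figure D2:**
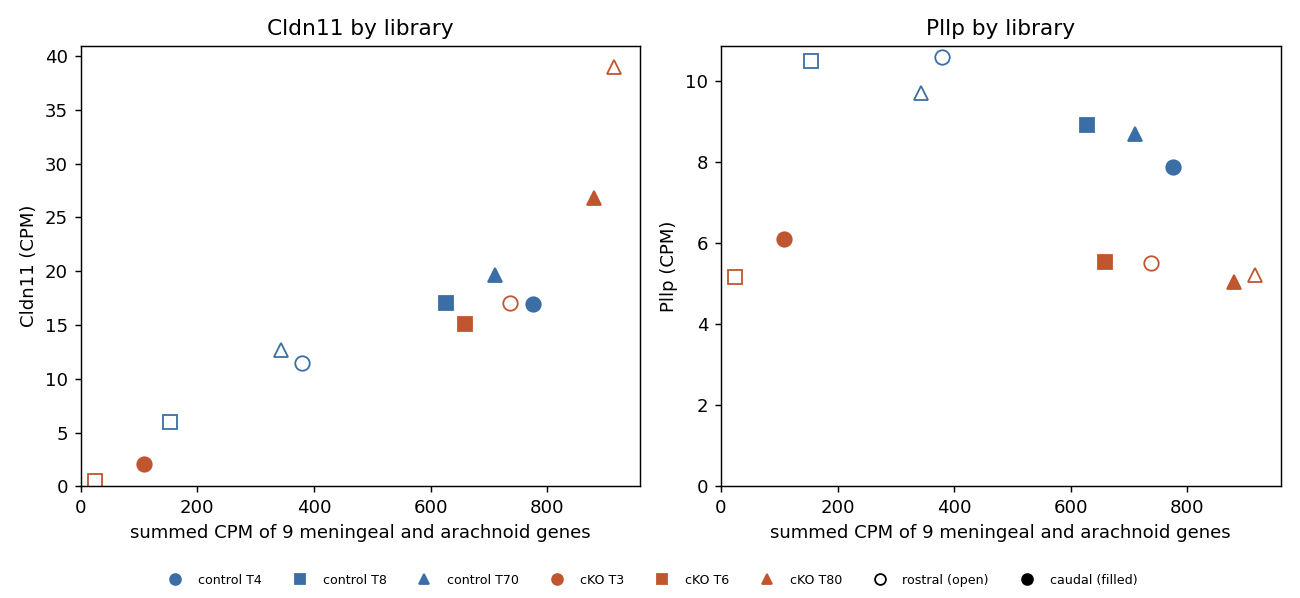
CPM of Cldn11 (left) and Pllp (right) against the summed CPM of 9 meningeal and arachnoid genes, 1 point per library, linear axes, blue for control and orange for cKO, open for rostral and filled for caudal. Cldn11 rises from 0.453 CPM at 24.5 CPM of meningeal RNA to 39.0 CPM at 915 CPM. Pllp lies at 5.05 to 6.1 CPM in cKO and at 7.88 to 10.6 CPM in control libraries. Control libraries hold meningeal sums from 154 to 775 CPM only, so the genotypes cannot be compared at lower or higher sums.

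Over the 9 genes, the threshold of an adjusted p of 0.05 called 1 gene (Pllp, lower) on animal sums, where 41 of 22924 genes (0.179%) were called, and 0.096% of all genes were called lower. In the same fit 7 of the 9 were lower at an unadjusted p under 0.05 (7.15% of all genes) and 7 did not overlap between genotypes with cKO lower (14.3% of all genes). The median log2 difference was -0.78 for the 9 genes and 0.02 for all genes. In rostral pieces 0 of 8 tested genes were called by edgeR, as were 0 of 20599 genes (0%). DESeq2 called 5 of the 8, and 394 of all genes. There 6 of the 8 were lower at an unadjusted p under 0.05 (3.98% of all genes) and 6 were lower without overlap (10.7%), with a median of -0.9 against 0.04. In caudal pieces 0 of 8 were called by edgeR, against 17 of 20705 genes (0.0821%). DESeq2 called 3 of the 8, and 517 of all genes. There 5 of the 8 were lower at an unadjusted p under 0.05 (6.86% of all genes) and 6 were lower without overlap (12.6%), with a median of -0.52 against 0. The comparisons by region use the same libraries as the animal sums and are not separate evidence.

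More of the 9 genes were called without T6, the animal whose rostral library stood apart. So were more of all genes, with 685 on animal sums, 1058 in rostral and 162 in caudal pieces, in place of 41, 0 and 17. Without T6, edgeR called 4 of the 9 genes on animal sums, which were Pllp (adjusted p = 0.00846), Mbp (0.0159), Fa2h (0.0184) and Mag (0.028). Without T6 it called Pllp and Fa2h in rostral and Mbp and Cnp in caudal pieces. Without T3 it called 0 of the 9 in rostral pieces, only Cnp in caudal pieces and 0 on animal sums, where 7, 99 and 39 of all genes were called. In each of the 6 cKO libraries taken alone, 7 or 8 of the 9 genes lay under the lowest control library of the same region, as did 30.6% to 40.1% of all tested genes. The exceptions were Cldn11 (T3 and T80 rostral, T80 caudal), Mobp (T3, T6 and T80 rostral, T6 caudal) and Mog (T3 caudal). Added over the 9 genes, control libraries held 169 ± 8.39 CPM in rostral and 156 ± 2.08 CPM in caudal pieces, and cKO libraries 107 ± 33.5 and 108 ± 13.8 CPM (SD, n = 3 each). These sums include Cldn11, which made up 0.453 of 69.2 CPM in T6 rostral and 39.0 of 121 CPM in T80 rostral. In bulk tissue, fewer oligodendrocytes and less myelin RNA per oligodendrocyte cannot be told apart.

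**Figure D3:**
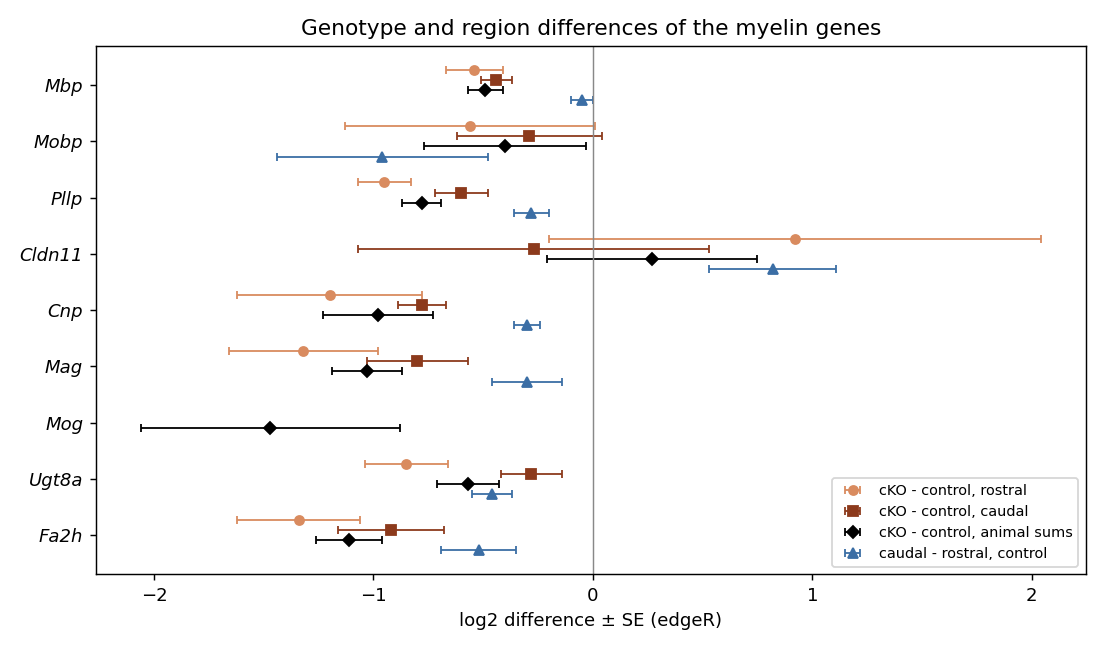
Log2 differences ± SE from edgeR for the 9 genes (x axis), as cKO minus control in rostral pieces, in caudal pieces and on animal sums, and as caudal minus rostral in controls. The 3 genotype differences are below 0 for 7 of the genes, Mog was tested on animal sums only, and Cldn11 spans 0.

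Within controls the question was whether the myelin genes differ between the rostral and the caudal piece. The main fit did not pair the 2 pieces of an animal. Cnp and Ugt8a were lower in caudal pieces, by log2 differences of -0.3 (SE 0.06, adjusted p = 0.0104) and -0.46 (SE 0.09, adjusted p = 0.0101) in edgeR's quasi-likelihood test. These were 2 of 8 tested genes, where 12.2% of 20461 genes were called and 5.88% were called lower. Fa2h (-0.52, SE 0.17, adjusted p = 0.0719) and Pllp (-0.28, SE 0.08, adjusted p = 0.0583) were not called in edgeR, and Mag was at -0.3 (SE 0.16). Cnp, Ugt8a, Fa2h and Pllp were lower in caudal pieces without overlap, 4 of 8 genes against 14.4% of all genes. Mbp was level, at 70.9 ± 1.19 CPM in rostral and 68.6 ± 2.09 CPM in caudal pieces (SD, n = 3; log2 difference -0.05, SE 0.05). Cldn11 was at 0.82 (SE 0.29, adjusted p = 0.152 in edgeR), higher in each caudal library, as were the summed meningeal genes. Neither call held in every subset of controls, with 1 gene (Cnp) called without T4, 0 without T70 and 3 without T8.

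Between the pieces of cKO brains, edgeR called 0 of 8 genes and 0% of 20944 genes, with 1.66% of all genes and 0 of the 8 at an unadjusted p under 0.05, and DESeq2 also called 0 of the 8. The log2 differences (caudal minus rostral) ran from -0.69 for Mobp to 0.22 for Mag. For Cnp the cKO difference was 0.13 (SE 0.41) and for Ugt8a 0.12 (SE 0.22), each positive where the control difference was negative. The test of the difference itself, the interaction of genotype and region, called 0 of 8 genes and 0% of 21599 genes by edgeR, and 0 of the 8 by DESeq2. At an unadjusted p under 0.05 it held Ugt8a (0.58, SE 0.24) and Pllp (0.35, SE 0.16), with adjusted p of 1 in edgeR, against 3.55% of all genes. A regional pattern that differs between genotypes was thus not detectable with 3 animals each. Without T3, these tests likewise called 0 of the 8 genes, with a median cKO difference between regions of 0.2 in place of 0.06.

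Lists of related genes show where the 9 stand in the lineage, all on animal sums, with edgeR unless DESeq2 is named. For these and the lists below, edgeR called 0.179% of all genes. Of all genes 7.15% were lower at an unadjusted p under 0.05 and 14.3% were lower without overlap, and DESeq2 called 803. Of 9 tested oligodendrocyte transcription factors, 3 fell and 0 rose, and DESeq2 called 6 (lower). At an unadjusted p under 0.05 in edgeR, 7 were lower and 1 was higher. Olig1, a factor of the lineage, was at 89.0 to 120.0 CPM in control and 44.4 to 61.1 CPM in cKO libraries (log2 difference -0.9, SE 0.07, adjusted p = 0.0115 in edgeR). Its partner Olig2 fell by 0.59 (SE 0.07, adjusted p = 0.0381) and Sox8 by 0.73 (SE 0.09, adjusted p = 0.0382), and none of these 3 overlapped between genotypes. Myrf, which switches on myelin genes, had 3.44 to 5.2 CPM in control and 1.5 to 3.33 CPM in cKO libraries and was not called (-0.81, SE 0.18, adjusted p = 0.143). The median over this list was -0.59.

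Of 10 genes of newly formed oligodendrocytes, 1 fell and 0 rose in edgeR, and DESeq2 called 4 (lower). In edgeR 5 were lower at an unadjusted p under 0.05. Enpp6, an enzyme that marks this stage, was at 4.71 to 8.39 CPM in control and 0.887 to 3.09 CPM in cKO libraries (log2 difference -1.38, SE 0.16, adjusted p = 0.0365 in edgeR). Bcas1 was not called (-0.87, SE 0.16, adjusted p = 0.0978), nor were 9630013A20Rik (-1.34, SE 0.26) and Gpr17 (-0.62, SE 0.16). Of 10 precursor genes 0 were called by edgeR and 2 by DESeq2 (lower), with 6 lower at an unadjusted p under 0.05 and a median of -0.35. Like the call of Pllp, the calls of Olig1, Olig2, Sox8 and Enpp6 were lost in edgeR with sex in the fit (adjusted p from 0.092 to 0.134) and without T4, T8 or T70 (from 0.112 to 0.249). Without T80 only Olig1 of these 4 was called (adjusted p = 0.0398), and without T3 Olig2 was not (0.0772).

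Of 15 other tested myelin genes, 0 were called by edgeR in either direction and 1 by DESeq2 (lower), with 3 lower at an unadjusted p under 0.05 and a median of 0.01. Tspan2, a tetraspanin of oligodendrocytes, was at 36.4 to 51.0 CPM in control and 29.9 to 37.5 CPM in cKO libraries (log2 difference -0.32, SE 0.09, adjusted p = 0.213 in edgeR). Ninj2, an adhesion molecule, was at -1.85 (SE 0.43, adjusted p = 0.162 in edgeR) with at most 14 counts per library. Trf, an iron carrier made by oligodendrocytes and by choroid plexus, was at 0.41 (SE 0.22), and at 0.64 (SE 0.09, adjusted p = 0.0172 in edgeR) without T6. Several of this list are also made by other cells of this tissue, and its median was not that of the 9 genes. Of 12 genes of sphingolipid and galactolipid metabolism, 0 were called by edgeR and 1 by DESeq2 (lower), with 1 lower at an unadjusted p under 0.05 and a median of 0. That 1 gene was Gal3st1, which sulfates galactosylceramide to sulfatide and so works directly after Ugt8a (-0.49, SE 0.12, adjusted p = 0.173), with 2.76 to 3.87 CPM in control and 1.95 to 2.57 CPM in cKO libraries. Sptlc2, a subunit of the enzyme that starts sphingolipid synthesis, was at 65.4 to 70.3 CPM in control and 61.1 to 72.7 CPM in cKO libraries, and these ranges overlapped. Cers2, a ceramide synthase (0.1, SE 0.06), and Ugcg, which makes glucosylceramide (0.11, SE 0.06), were higher in cKO without overlap on animal sums. Neither was called (adjusted p = 0.462 and 0.407 in edgeR). As many of the 12 genes, Gal3st1 and Arsa (-0.25, SE 0.15), were lower without overlap, as were 14.3% of all genes. The share of all genes that were higher without overlap is not given here, so the 2 higher genes are not read as a result.

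Markers of other cells were read beside these values. Of 10 astrocyte genes, 1 fell in edgeR (Slc7a10, an amino acid transporter, log2 difference -1.31, SE 0.14, adjusted p = 0.028), with a list median of -0.29, and 4 were lower by DESeq2 and 4 at an unadjusted p under 0.05. Like the calls above, that of Slc7a10 was lost in edgeR with sex in the fit (adjusted p = 0.107), without T4, T8 or T70 (0.158 to 0.21) and without T80 (0.0615), while it was called without T3 (0.0289) or T6 (0.0016). The summed astrocyte genes ran from 2480 to 3300 CPM in control and from 1010 to 3230 CPM in cKO libraries. The 6 neuronal genes had 0 calls by edgeR, 1 by DESeq2 (lower), 1 lower at an unadjusted p under 0.05, and a median of 0.04. The 7 striatal genes had 0 calls by edgeR, 1 by DESeq2 (lower), 4 lower at an unadjusted p under 0.05 and a median of -0.92. The 5 genes of the Schwann cell list, which mark myelin of peripheral nerve but are partly made by other cells, summed to 5.6 to 6.94 CPM in control and 5.53 to 16.2 CPM in cKO libraries. Of its 3 tested genes 0 were called by edgeR, 0 by DESeq2 and 0 were at an unadjusted p under 0.05. The 6 choroid plexus genes had 0 calls by edgeR, 2 by DESeq2 (higher) and 3 higher at an unadjusted p under 0.05. The share of all genes that were higher at that limit is not given here. All 6 choroid plexus genes were above 0, with a median of 1.34 against 0.02 for all genes. Their summed CPM was 2.43 to 3.14 in control rostral, 6.35 to 210 in control caudal, 1.1 to 387 in cKO rostral and 152 to 543 in cKO caudal libraries. The part of astrocyte, striatal, choroid plexus and meningeal content in the myelin gene differences was not tested.

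**Figure D4:**
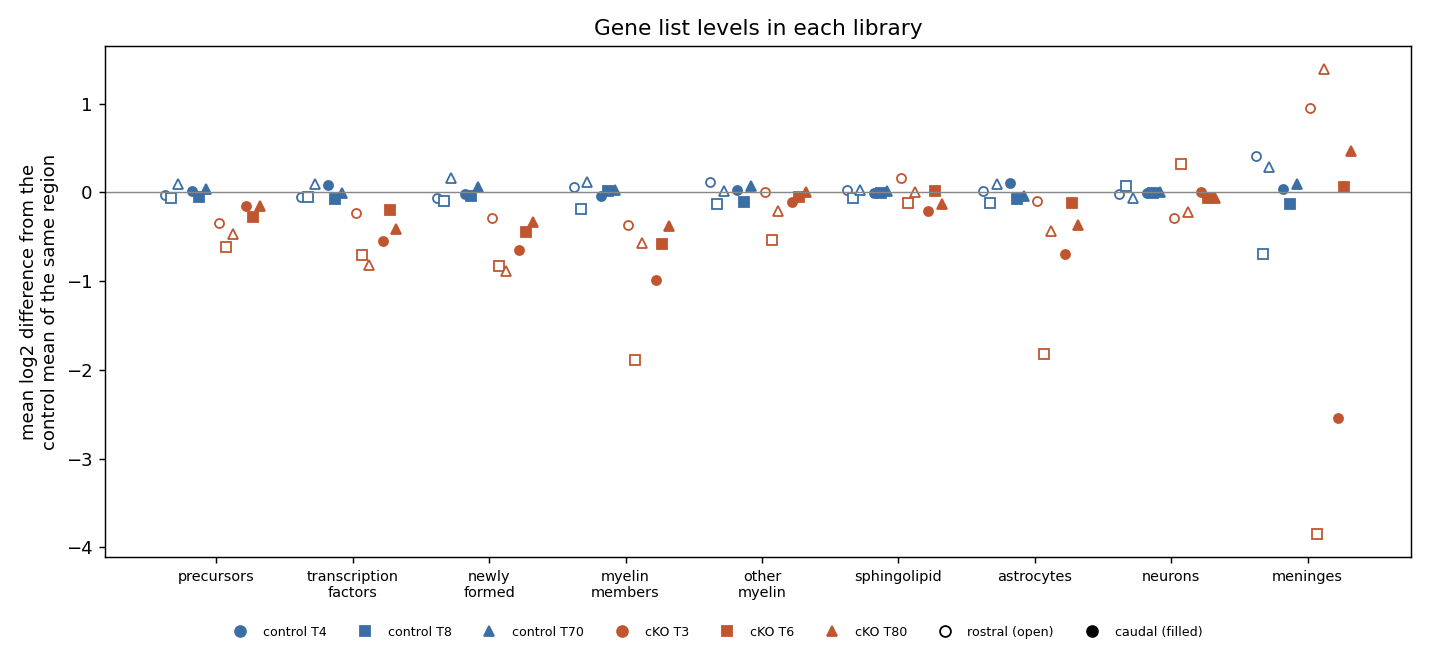
Mean log2 difference of each library from the control mean of its region (y axis) for the myelin genes with a mean of 1 CPM or more and for 8 gene lists (x axis), 1 point per library, with colour for genotype, shape for animal and open or filled points for rostral or caudal. The mean of the myelin genes, which include Cldn11, is below 0 in all 6 cKO libraries. It is lowest in T6 rostral, where the astrocyte (-1.82) and meningeal genes are lowest as well. Cldn11, which moved with the meningeal genes, had its lowest value there (0.453 CPM) and makes up part of that low mean.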

How the data were processed

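RNA of 12 libraries from 6 animals was analysed. Per the submitters' processing notes, the authors used STAR 2.7.8a and featureCounts 2.0.3 on GRCm39 to make the deposited expected counts per gene. Not given in the sources used here: annotation release, strand setting and treatment of shared reads. Per library, 9.69% to 14.3% of the gene values were not whole; each value was rounded, and the tests had been designed for either case. Overlapping and antisense genes may not be told apart.

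Groups came from the labels. The members and lists were chosen with earlier results of these data known. Each comparison was fitted in edgeR 4.0.16 (R 4.3.3) on its own groups, with filterByExpr, TMM scaling, the robust quasi-likelihood F test, Benjamini-Hochberg adjustment over all tested genes and a threshold of 0.05. SE is the log2 difference divided by the square root of F. For the genotype, the rostral and caudal counts of an animal were also summed. P-values of the main genotype comparisons measure the spread between 3 animals per genotype. The main fits between regions and of the interaction had no term for the animal. In these fits both pieces of an animal entered as separate libraries, so their p-values do not measure the spread between animals alone. All 9 members are named, with up to 4 genes per list by smallest p; some list genes are not reported here. Library log2 levels used a prior count of 2. The alternatives were DESeq2 1.42.0, its size factors in edgeR, other filters, 1 fit over all libraries, sex as a covariate, limma 3.58.1 voom, the animal as a block, and each animal left out.

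Rostral and caudal libraries share T numbers, taken as the animal. Deviations from group means correlated between the pieces of an animal with r = 0.453 (T4), 0.47 (T8), 0.571 (T70), 0.0335 (T3), -0.0297 (T6) and 0.621 (T80) over 16030 genes. The fits were also run on simulated counts with the same dispersion for every gene and independent libraries. That run does not bear on paired or outlying libraries or on genes with few counts.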

Additional observations from a re-analysis of the deposited data

How the results depend on the processing

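No count of called myelin genes in the genotype comparisons was the same under every alternative. In rostral pieces edgeR called 0, against 5 by DESeq2, 1 with no filter on low counts, 3 in a fit over all 12 libraries and 0 to 2 with single animals left out. In caudal pieces it called 0, against 3 by DESeq2, 3 with no filter and 0 to 2 with animals left out. On animal sums it called 1, against 6 by DESeq2, 2 with DESeq2 size factors in edgeR, 5 with no filter, 2 with a filter of 1 CPM in 3 libraries, 5 in the fit over all libraries, 0 with sex as a covariate, 3 by voom with the animal as a random replicate block, and 0 to 4 with animals left out. The fit over all 12 libraries had no term for the animal, so both pieces of an animal counted as separate libraries in it. Between regions in controls the main edgeR fit called 2, against 0 in the fit over all libraries and 0 to 3 with animals left out. With the animal as a replicate block, the paired fit called 2 genes between regions in controls, 0 in cKO and 0 for the interaction, so it changed no call. The median difference between regions in cKO was 0.06, and -0.03 to 0.2 with animals left out.

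Directions turned for Cldn11, at -0.62 by voom on both regions. With animals left out Cldn11 ran from -0.2 to 1.48 in rostral pieces, from -1.03 to 0.23 in caudal pieces, from -0.6 to 0.63 on animal sums and from -0.94 to 0.09 between regions in cKO. Between regions in cKO, leaving animals out also gave -0.56 to 0.2 for Fa2h, -0.12 to 0.5 for Cnp, -0.24 to 0.81 for Mag and -0.07 to 0.19 for Mbp. The interaction ran from -0.05 to 0.67 for Mobp, from -0.02 to 0.25 for Mbp and from -0.04 to 0.72 for Fa2h. In the genotype comparisons, all alternatives kept the direction of the other 8 genes wherever they were tested.

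Counts over all genes moved as well. In rostral pieces 0 genes were called, against 394 by DESeq2, 45 with no filter, 101 in the fit over all libraries, 7 without T3 and 1058 without T6. In caudal pieces 17 were called, against 517 by DESeq2, 326 with no filter, 1 in the fit over all libraries, 2 with sex, and 0 to 162 with animals left out. On animal sums 41 were called, against 803 by DESeq2, 320 with no filter, 310 in the fit over all libraries, 101 by voom, 1 with sex, and 1 (T4 or T8 left out) to 685 (T6 left out). Between regions in controls 2492 were called, against 78 in the fit over all libraries and 1079 to 1690 with animals left out. For the interaction 0 were called, against 14 by DESeq2, 2 with no filter, 1 without T3 and 475 without T6, and between regions in cKO 0 against 4 by DESeq2. The cause of these shifts was not tested. Depth limits Mog and Mobp, with at most 20 and 38 counts per library.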

Other observations

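Over the 12 libraries, the log2 profiles of 16024 genes with a mean of 1 CPM or more were compared with the mean profile of the 6 members that passed that level (Mbp, Pllp, Cldn11, Cnp, Mag and Ugt8a), as a root mean square difference after centring. The nearest genes were Metrn (0.147), Chst7 (0.147), Fabp7 (0.159), Prdx6 (0.164) and Scd4 (0.167). Cldn11 was far from the other members, at 1.57 against 0.332 for Cnp, the nearest. With Cldn11 left out of the profile, a choice made after seeing the data, the nearest were the oligodendrocyte transcription factors Sox8 (0.102) and Olig1 (0.131), then Meox1 (0.135), AU021092 (0.151) and Cerox1 (0.16). The 2 sets of 5 genes shared 0 genes. The 12 libraries share animals and genotype, so this likeness holds the genotype difference and the regions together.

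The spread over libraries differed among members as well. The SD of log2 CPM over the 12 libraries was 0.288 for Mbp, 0.396 for Ugt8a, 0.427 for Pllp, 0.681 for Mag, 0.729 for Cnp and 1.75 for Cldn11.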
